A study of Homo sapiens with 24 samples.

Results

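U-251MG is a human cell line established from a glioblastoma, and the comparison described here set its total RNA against its cytoplasmic RNA. The members were the libraries that the labels assign to this line, 8 of the 24 libraries of the series. Of these, 4 held total RNA (libraries 5 to 8) and 4 held cytoplasmic RNA (libraries 17 to 20). The labels give no treatment, no time point and no genetic change, and all 8 libraries came from the same cultured line. Total RNA was prepared from whole cells. Cytoplasmic RNA was prepared after a mild detergent had opened the plasma membrane while leaving the nuclei to be removed. Both kinds of RNA were enriched for poly(A) tails before sequencing. The study also prepared both fractions from A-431 (epidermoid carcinoma) and U-2 OS (osteosarcoma), which serve below only to show where U-251MG differed.

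In a human cell, genes are transcribed and spliced in the nucleus, and most finished messenger RNAs are then carried through the nuclear pores to the cytoplasm, where ribosomes translate them. Some long non-coding RNAs remain in the nucleus: MALAT1 collects in nuclear speckles, and NEAT1 is the scaffold of paraspeckles. Transcripts of the mitochondrial genome are made and kept outside the nucleus. A library of total RNA samples all of these compartments together, so the ratio of total over cytoplasmic RNA compares a whole with a part of itself. Levels are given as CPM, the read count scaled to 1e6 reads in genes after TMM normalization, and differences as the log2 ratio of total over cytoplasmic RNA. A gene was called when edgeR's quasi-likelihood F-test gave a Benjamini-Hochberg adjusted p under 0.001, and since the labels tie no library to a particular culture, p-values cover only how much the libraries of a fraction varied. The libraries hold relative amounts only, so a lower share of a transcript and a smaller amount of it per cell could not be told apart.

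The fraction labels were checked first on the RNAs that are known to stay in the nucleus. MALAT1 was measured at 24.3, 19.6, 20.95 and 14.2 CPM in the 4 total libraries, against 57.1, 44.3, 53.7 and 47.1 CPM in the 4 cytoplasmic libraries. Every library labelled cytoplasmic therefore lay above every library labelled total, with a log2 ratio of -1.36 (SE 0.142, adjusted p = 9.41e-05). NEAT1 was at 608, 411, 523 and 209 CPM in total RNA and at 1311, 1202, 979 and 964 CPM in cytoplasmic RNA. These groups did not overlap either, but total library 8 lay far below the other total libraries, and the log2 ratio of -1.35 did not pass the threshold (adjusted p = 0.0128). Both nuclear RNAs were thus higher, not lower, in the libraries labelled cytoplasmic, and all directions below are those of the libraries labelled total and the libraries labelled cytoplasmic. By the study's methods, the preparations had been checked before sequencing by capillary electrophoresis, in which a peak of nuclear RNA marked total RNA, and a cytoplasmic preparation of U-2 OS that showed this peak was set aside. The mitochondrial transcript MT-CO1, which encodes a subunit of cytochrome c oxidase, was at 6237, 3294, 3794 and 2909.7 CPM in total RNA and 11084, 10145, 10626 and 9831 CPM in cytoplasmic RNA. It too was higher in every cytoplasmic library, with a log2 ratio of -1.36 that missed the threshold (adjusted p = 0.00146). Total library 5 held more MT-CO1 than the other total libraries.

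The identity of the line was checked on markers of glial cells and of other cell types. Of the glial and glioma markers, 19 were tested, and the intermediate filament gene VIM was the most abundant, at 6303, 6914, 6686 and 6665 CPM in total RNA and 6886, 7189, 7183 and 7314 CPM in cytoplasmic RNA. Its fractions overlapped, and its log2 ratio was -0.10. NES, which encodes the progenitor filament nestin, averaged 47.7 ± 4.10 CPM in total RNA, against 51.4 ± 4.88 CPM in cytoplasmic RNA (mean and SD of 4 libraries each). FABP7, a fatty acid binding protein of radial glia, averaged 64.8 ± 6.44 CPM in total RNA, against 66.4 ± 5.39 CPM in cytoplasmic RNA (mean and SD of 4 libraries each). GFAP, the classical filament of astrocytes, was at 2.75, 2.57, 2.53 and 2.29 CPM in total RNA and 2.95, 3.15, 4.22 and 5.27 CPM in cytoplasmic RNA (adjusted p = 0.0151). The defining astrocyte marker was thus detected in every library and its fractions did not overlap, although it was not called. Of the 20 markers listed for other cell types, 6 passed the filter on low counts and edgeR called none of those 6, at a median log2 ratio of 0.00. Of the 6, 2 had an unadjusted p under 0.05 and 1 was called by DESeq2, in cytoplasmic RNA. The most abundant of the 6 was the osteoblast gene RUNX2, at a mean of 59.9 CPM in total and 56.4 CPM in cytoplasmic RNA. The immune gene CD68 followed, at 48.4 and 47.2 CPM. These levels were near those of NES and FABP7 and above that of GFAP, markers named after their values were seen. TNC, the next most abundant glial marker after VIM, lay above all of these. Its mean was 1595 CPM in total and 1853 CPM in cytoplasmic RNA. NES, FABP7 and GFAP thus did not set the line apart as glial, and these levels do not decide its identity.

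The genes called in the 2 directions differed in base composition. A coding stretch of 30 bases is printed for the 3 genes with the largest ratio in each direction under the naming rule. Genes of the mitochondrial genome were left out of this choice. MT-ND4L, with 43.1% G and C, thus gave way to MZF1 among the genes higher in cytoplasmic RNA. Each stretch is the first window of the coding sequence, within a single exon, whose share of G and C matched that of the whole transcript. The sequences were read 5′ to 3′ from GRCh37, the build to which the authors aligned, and capitals mark G and C.

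IQGAP1: CtGtCCtGGataatGaaaGaCttaCtGCaG
CNRIP1: CatCCaGCCtaatGaCGGCCCGGtCtttta
TAOK1: CCtGaaattGCaGaGCtCttCttCaaaGaa
PABPC1L: atGaaCGCCaGCGGttCtGGCtaCCCGCtt
TTLL3: taCaatCCaaGGCtGCtaCCCGGtGatCCG
MZF1: GGCtCCCCaGaCCGaGCaCCCCCaGaaGat

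In the total-high set, IQGAP1 had 13 of 30 bases and its whole transcript 43.4% G and C, CNRIP1 had 16 of 30 bases and 52.7%, and TAOK1 had 12 of 30 bases and 40.1%. In the cytoplasm-high set, PABPC1L had 18 of 30 bases and 58.9%, TTLL3 had 17 of 30 bases and 56.5%, and MZF1 had 20 of 30 bases and 66.4%. The stretch of IQGAP1 lies at chr15:90934006-90934035 (plus strand), that of CNRIP1 lies at chr2:68546459-68546488 (minus strand), that of TAOK1 lies at chr17:27778603-27778632 (plus strand). The stretch of PABPC1L lies at chr20:43538785-43538814 (plus strand), that of TTLL3 lies at chr3:9854641-9854670 (plus strand), that of MZF1 lies at chr19:59082709-59082738 (minus strand).

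The total libraries held between 19918911 and 30835231 reads in genes, and the cytoplasmic libraries between 25987258 and 28349560. Over 10514 well measured genes, library pairs correlated at 0.9794 to 0.9943 within total RNA and at 0.9849 to 0.9973 within cytoplasmic RNA, against 0.9281 to 0.9828 between the fractions. Total library 8 stood furthest from its group, with a root mean square deviation of 0.194 on the log2 scale, whereas the other 7 libraries were at 0.0885 to 0.154. Protein transcripts of the mitochondrial genome took 1.99 ± 0.83% of gene reads in total RNA and 3.67 ± 0.261% in cytoplasmic RNA (SD, n = 4 each). Transcripts of cytosolic ribosomal proteins took 1.52 ± 0.0786% in total RNA and 1.81 ± 0.117% in cytoplasmic RNA, and long non-coding RNAs took 0.412 ± 0.024% and, in cytoplasmic RNA, 0.535 ± 0.0144%. For each of these shares the fractions did not overlap, and the two-sided exact permutation test gave its smallest possible value (p = 0.0286, 0.0327 after adjustment over 8 library measures). Transcripts of replication-dependent histones, most of which lack a poly(A) tail, took 0.00248 ± 0.000147% in total RNA and 0.0028 ± 0.000333% in cytoplasmic RNA, and overlapped (exact p = 0.114).

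The test called 957 of 16128 genes higher in total RNA (5.93%) and 1126 higher in cytoplasmic RNA (6.98%), termed total-high and cytoplasm-high below. No called gene overlapped between the fractions, but neither did some genes that were not called, such as NEAT1, MT-CO1 and SURF4 (adjusted p = 0.214). The lack of overlap therefore adds little to a call. The differences were small on the whole. The median log2 ratio was 0.50 for the genes higher in total RNA and -0.68 for those higher in cytoplasmic RNA, and the numbers past a 2-fold difference were 15 and 193. The number of calls depended on single libraries. All 957 and 1126 ratios kept their sign without any single library, which the lack of overlap had largely fixed in advance. The number of genes called in total and in cytoplasmic RNA changed. It was 548 and 680 without total library 5, 318 and 377 without total library 6, 484 and 604 without total library 7, and 833 and 950 without total library 8. Of the cytoplasmic libraries, leaving out library 17 gave 377 and 594, library 18 gave 217 and 316, library 19 gave 907 and 930, and library 20 gave 264 and 429.

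**Figure D1:**
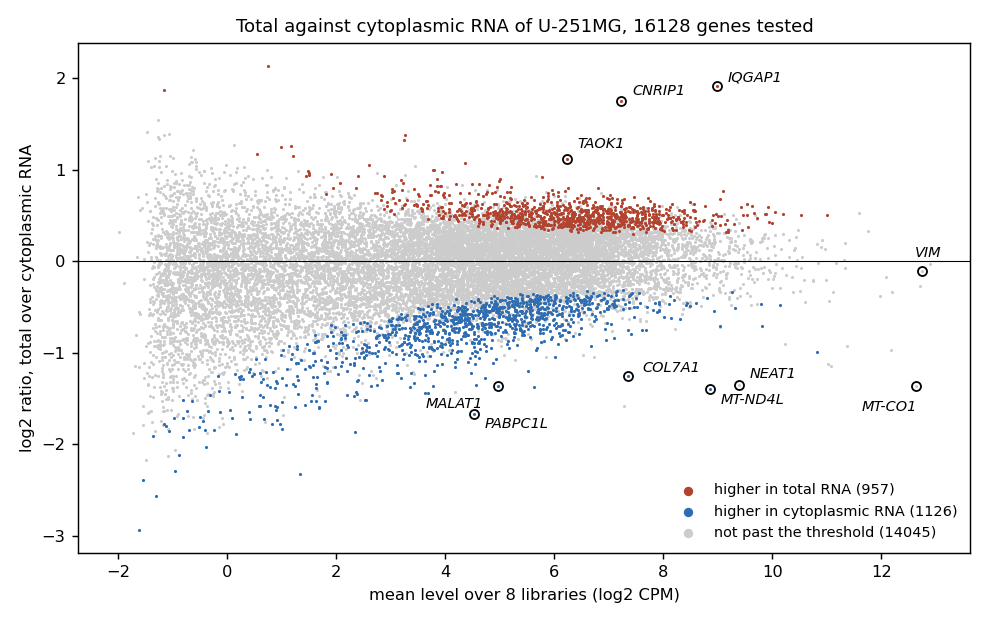
Log2 ratio of total over cytoplasmic RNA (y axis) against the mean level over the 8 U-251MG libraries in log2 CPM (x axis), with a point for each of the 16128 genes tested. The 957 genes higher in total RNA are red and the 1126 higher in cytoplasmic RNA are blue; circled genes are named. IQGAP1 lies above the other abundant genes at 1.91, while MT-CO1 and NEAT1 lie far below 0 without passing the threshold.

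The rule for the leading genes admitted called protein-coding genes and long non-coding RNAs with a symbol at a mean of 3 log2 CPM or more. It also required that the fractions did not overlap, so the separation of the libraries of these genes was set by the rule. A called gene below that level had a ratio of 2.14. Of the genes admitted, IQGAP1 had the largest total-high ratio. It encodes a scaffold protein that joins the actin cytoskeleton to cell adhesion and signalling, and spans chr15:90931474-91045471. Its level was 927, 1000.4, 948 and 1074 CPM in total RNA and 241, 220.2, 318 and 269.8 CPM in cytoplasmic RNA. All total libraries were far above all cytoplasmic libraries, by 3.77-fold (log2 ratio 1.91, SE 0.104, adjusted p = 2.04e-06). Its relatives did not share this: IQGAP2 had a log2 ratio of 0.35 (adjusted p = 0.117) and IQGAP3 of -0.43 (adjusted p = 0.0017), neither past the threshold. CNRIP1, which encodes a protein that binds the cannabinoid receptor CB1, was at 339.7, 185, 280.2 and 319 CPM in total RNA and 69.5, 76.3, 93.96 and 92.3 CPM in cytoplasmic RNA. Total library 6 held less of it than the other total libraries, still above every cytoplasmic library, and the log2 ratio was 1.76 (SE 0.190, adjusted p = 0.000227). TAOK1, a kinase upstream of stress-activated MAP kinases, was at 106, 111, 107 and 121 CPM in total RNA and 49.8, 55.2, 53.7 and 45.9 CPM in cytoplasmic RNA. The fractions were separated by more than the whole spread within either, with a log2 ratio of 1.12 (SE 0.0752, adjusted p = 6.73e-06).

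The other leading total-high genes that this rule admitted lay between 0.81 and 1.08, while pseudogenes and genes without a symbol, which it left out, reached 1.38. ZBTB41, a BTB zinc finger protein, was at 26.8, 28.4, 31.8 and 33.2 CPM in total RNA and 13.4, 15.5, 15.4 and 12.6 CPM in cytoplasmic RNA. ITGB8, an integrin chain that activates latent TGF-beta, was at 70.5, 84.4, 69.8 and 79.95 CPM in total RNA and 32.5, 45.2, 44.7 and 37.8 CPM in cytoplasmic RNA (log2 ratio 0.93). Both genes were higher in every total library, which the rule required. The remaining members were ZDHHC20, a palmitoyltransferase (0.90), HMGN5, a nucleosome binding protein (0.87), GTF2A1, a subunit of the general transcription factor TFIIA (0.85), and DNAJC3, a chaperone of the endoplasmic reticulum (0.85). They also included IPMK, an inositol phosphate kinase (0.83), the membrane protein gene LMBRD2 (0.82), and CLOCK, the transcription factor of the circadian clock (0.81). Of the most abundant total-high genes, CANX, the lectin chaperone calnexin, was at 2409, 2406, 2482 and 2529 CPM in total RNA and 1732, 1659, 1805 and 1704 CPM in cytoplasmic RNA. Its log2 ratio was 0.51 (SE 0.0604), and the narrow spread within each fraction set the groups apart. CALU, a calcium binding protein of the secretory pathway (0.51), HSP90B1, the chaperone GRP94 (0.43), the lysosomal membrane protein gene LAMP2 (0.42), the receptor gene DCBLD2 (0.50) and the chromatin protein gene NUCKS1 (0.54) were the other abundant genes called. Once a fitted trend of the ratio with the GC content of the transcript was removed (GC offset), the ratio of LAMP2 was 0.01 and no longer called.

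**Figure D2:**
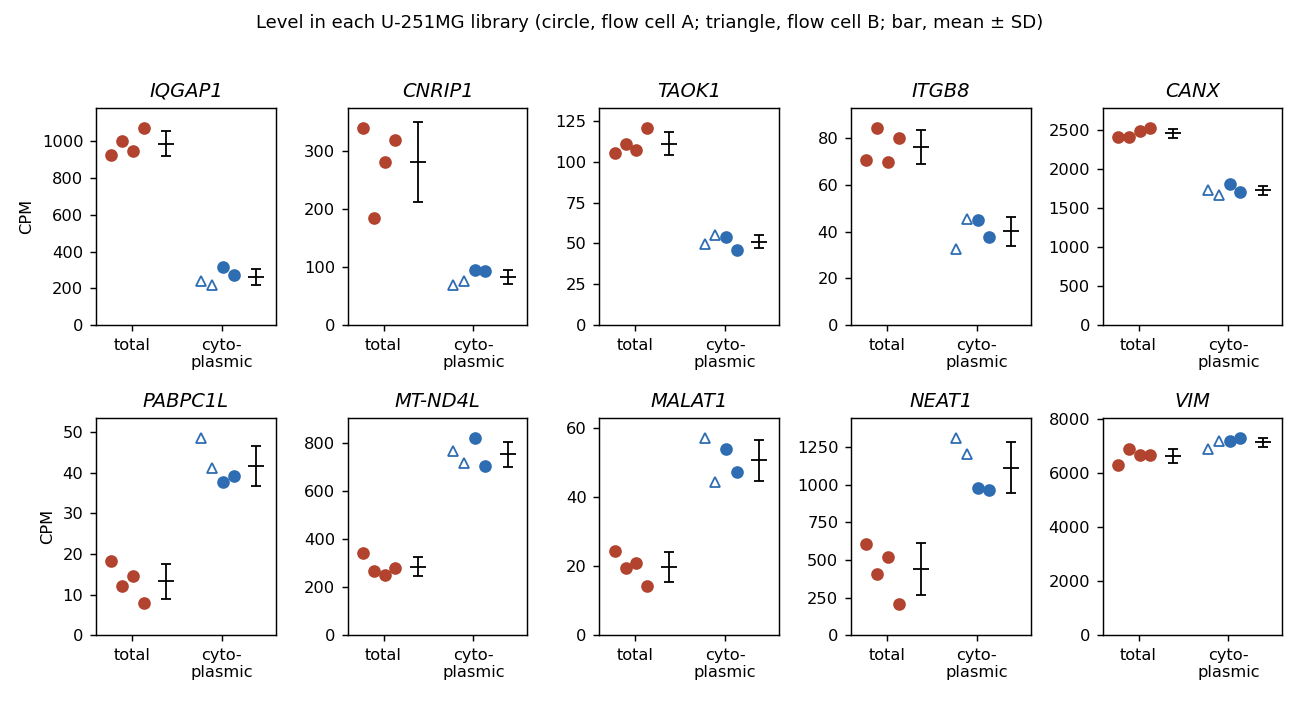
Level of 10 named genes in CPM (y axes, from 0) in each U-251MG library, total libraries (red) left of cytoplasmic libraries (blue); circles are flow cell A, triangles flow cell B, and bars give the mean and SD of 4 libraries. The 5 upper genes are higher in every total library, PABPC1L, MT-ND4L, MALAT1 and NEAT1 are higher in every cytoplasmic library, and the VIM groups overlap.

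In the opposite direction, called genes that the rule left out had larger ratios, with -2.57 among them. PABPC1L, which encodes a poly(A) binding protein, led the genes higher in cytoplasmic RNA that the rule admitted. It was at 18.2, 12.2, 14.6 and 8.01 CPM in total RNA and 48.5, 41.02, 37.7 and 39.2 CPM in cytoplasmic RNA. All cytoplasmic libraries were more than 2-fold above the highest total library, with a log2 ratio of -1.67 (SE 0.209, adjusted p = 0.000312). MT-ND4L, a mitochondrial subunit of respiratory complex I, was at 340.4, 269.6, 252 and 281 CPM in total RNA and 766, 718, 821 and 704 CPM in cytoplasmic RNA (log2 ratio -1.40, SE 0.0919, adjusted p = 6.73e-06). The mitochondrial gene thus had a ratio of the same sign as the nuclear gene MALAT1 and of similar size. COL7A1, the collagen of anchoring fibrils, was at 127, 121, 113 and 68.4 CPM in total RNA and 266, 269, 234 and 253 CPM in cytoplasmic RNA. Total library 8 held the least, and the log2 ratio was -1.25 (SE 0.169).

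Further leading genes under the rule that were higher in cytoplasmic RNA were TTLL3, a tubulin glycylase (-1.44), MZF1, a zinc finger transcription factor (-1.37), the immune receptor gene PILRB (-1.37), the semaphorin receptor gene PLXNB3 (-1.35), EME2, a subunit of a DNA nuclease (-1.32), the lipid transporter gene ABCA7 (-1.28), the golgin-family gene GOLGA8B (-1.27) and the kinesin gene KIFC2 (-1.25). Exons of EME2, TTLL3, PLXNB3, PILRB and KIFC2 overlapped those of other genes over 17.8% to 33% of their bases. The authors' counting ignored strand and set aside reads that fitted more than 1 gene as ambiguous, so, where the annotation used for counting holds the same overlaps, the levels of these genes rest on their remaining exon bases. Abundant genes showed smaller differences. PLEC, the cytoskeletal linker plectin, was at 763, 707, 749 and 595 CPM in total RNA and 1206, 1165, 1138 and 1083 CPM in cytoplasmic RNA (log2 ratio -0.71, but -0.04 with the GC offset). SRRM2, a protein of nuclear speckles that takes part in splicing, was at 474, 394, 390.4 and 405 CPM in total RNA and 742, 647, 656 and 662 CPM in cytoplasmic RNA (log2 ratio -0.70). Neither gene overlapped between the fractions. RACK1, a ribosome-bound scaffold (-0.48), the glycolytic enzyme genes TPI1 (-0.51) and ALDOA (-0.46, but -0.01 with the GC offset), and ARF1, a GTPase of Golgi transport (-0.33), were also higher in cytoplasmic RNA. Of the most abundant housekeeping genes, ACTB (-0.03) and GAPDH (-0.34, adjusted p = 0.00682) did not pass the threshold.

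The secretory pathway contributed more genes to the total-high set than to the cytoplasm-high set. Of 39 tested genes of vesicle traffic, 12 were total-high and 2 cytoplasm-high, with a median log2 ratio of 0.27, beside 5.93% and 6.98% and a median of 0.00 over all genes tested. The counts of every list below stand beside the same shares. The Golgi tether gene TRIP11 (74.2, 71.5, 72.2 and 84.1 CPM in total RNA, 47.5, 42.3, 49.9 and 44.9 CPM in cytoplasmic RNA) had the largest total-high ratio of the list (0.71), and the cargo receptor TMED2 was an abundant member (0.43). COPE, a coatomer subunit (-0.77), and SEC13, of the COPII coat (-0.42), were the members higher in cytoplasmic RNA. Of 40 genes of protein folding in the endoplasmic reticulum, 8 were total-high and 1 cytoplasm-high (median 0.25). The 8 were CANX, HSP90B1, DNAJC3, the mannosidase-like EDEM3 (0.60), the oxidase ERO1A (0.57), the reductase DNAJC10 (0.54), the translocon component SEC62 (0.51) and the folding sensor UGGT1 (0.30), and the exception was SSR4, which acts at the translocon (-0.63). The chaperone calreticulin, encoded by CALR, had a log2 ratio of 0.14 and was not called (adjusted p = 0.162).

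Of 35 tested enzymes of ubiquitin transfer, 7 were total-high and 0 cytoplasm-high (median 0.26), while 3 had an unadjusted p under 0.05 and 1 was called by DESeq2 in cytoplasmic RNA. With the GC offset the median was 0.07 and edgeR called none of the 35, while 10 had an unadjusted p under 0.05 in total RNA and 3 in cytoplasmic RNA. Of the 7 called total-high without the offset, 3 were cullin scaffolds, CUL4B (0.48), CUL5 (0.50) and CUL3 (0.40). The others of the 7 were the conjugating enzymes UBE2W (0.55), UBE2K (0.48) and UBE2H (0.42) and the ligase UBE3A (0.52). Of 54 genes of the nuclear pore and of nuclear transport, 4 were total-high and 1 cytoplasm-high, and their median of 0.16 turned to -0.0078 with the GC offset. The 4 higher in total RNA were the transport receptors TNPO1 (0.55) and XPO1 (0.41), and the pore proteins SEH1L (0.40) and RANBP2 (0.38), whereas DDX39B, a helicase of mRNA export, was at 119, 84.5, 97.7 and 71.6 CPM in total RNA and 199, 166, 154 and 158 CPM in cytoplasmic RNA (-0.86).

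Genes of the ribosome and of energy metabolism were called more often in the other direction. Of 75 cytosolic ribosomal protein genes, 17 were higher in cytoplasmic RNA and 0 in total RNA (median -0.26), while 1 had an unadjusted p under 0.05 and 0 were called by DESeq2 in total RNA. RPS15, of the small subunit, was at 121, 122, 153 and 119 CPM in total RNA and 224, 253, 214 and 203 CPM in cytoplasmic RNA, with no overlap and a log2 ratio of -0.80. The most abundant members did not follow, since RPS6 had 0.03 and RPL15 0.01. Processed pseudogenes named after these genes are annotated for RPL15 (20), RPS6 (15) and RPS15 (3), so reads of the parent and its copies may have been shared between them. Of 73 nuclear genes of oxidative phosphorylation, 11 were higher in cytoplasmic RNA and 1 in total RNA (median -0.22). COX8A, of cytochrome c oxidase (-0.77), had the largest cytoplasm-high ratio, and NDUFA5, of complex I, was the exception (0.58). The ATP synthase gene ATP5F1B had a log2 ratio of -0.07 and was not called.

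Mitochondrial ribosomal protein genes were called for 11 of 76, with 2 total-high and 9 cytoplasm-high (median -0.06). This was near the 12.9% called over all genes tested. MRPL55 was at 15.4, 16.4, 16.02 and 15.8 CPM in total RNA and 32.96, 33.9, 29.6 and 31.1 CPM in cytoplasmic RNA (-1.005), and MRPL19 pointed the other way (0.52). The fractions of MRPL55 were far apart, with little spread in either. Of 26 glycolytic genes, 4 were higher in cytoplasmic RNA and 0 in total RNA (median -0.14, while 2 had an unadjusted p under 0.05 and 1 was called by DESeq2 in total RNA), namely PFKL (-0.71), PFKFB4 (-0.52), TPI1 and ALDOA. Translation factors were balanced, with 2 of 43 called in each direction (median 0.01). EIF2S1 (0.39) and the release factor gene GSPT1 (0.34) were higher in total RNA, EIF6 (-0.52) and EIF3K (-0.37) in cytoplasmic RNA, and the elongation factor EEF2 missed the threshold (-0.43, adjusted p = 0.00137). Of 38 proteasome genes, 1 was higher in total RNA, the lid subunit PSMD12 (0.43), and 3 in cytoplasmic RNA, led by the immunoproteasome subunit PSMB10 (-0.80), at a median of -0.06.

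Transcripts of the mitochondrial genome differed by gene. Of the 13 protein-coding ones, only MT-ND4L passed the threshold, while the list had a median log2 ratio of -0.90. MT-ND4 was at 5627, 2652, 3034 and 2334 CPM in total RNA and 7014, 6258, 7086 and 6410.1 CPM in cytoplasmic RNA (-0.97, adjusted p = 0.0203), where total library 5 stood well above the other total libraries. The range within the list was wide, and MT-ND3 lay at 0.51 (adjusted p = 0.0943). Both mitochondrial ribosomal RNAs were higher in cytoplasmic RNA, MT-RNR1 by a log2 ratio of -0.84 and MT-RNR2 by -0.99.

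Of 709 genes annotated as long non-coding RNAs, 2 were total-high (0.282%) and 40 cytoplasm-high (5.64%), beside 5.93% and 6.98% of all genes tested, at a median of -0.20. The cytoplasm-high share was thus near that of all genes, and the total-high share was lower. Of 13 tested RNAs listed as retained in the nucleus, MALAT1 was higher in cytoplasmic RNA and OIP5-AS1 was higher in total RNA, at a list median of -0.31. OIP5-AS1, a long RNA that the literature also describes in the cytoplasm, was at 112, 121, 125 and 131 CPM in total RNA and 69.9, 74.7, 83.3 and 73.95 CPM in cytoplasmic RNA. Its libraries did not overlap between the fractions, and the log2 ratio was 0.70 (SE 0.0728, adjusted p = 7.48e-05). Of 16 RNAs listed as spliced hosts of small RNAs or as cytoplasmic, 4 were higher in cytoplasmic RNA and 0 in total RNA (median -0.32), while 0 had an unadjusted p under 0.05 and 0 were called by DESeq2 in total RNA. The 4 called were the snoRNA host genes SNHG12 (-0.91), SNHG15 (-0.88), SNHG3 (-0.78) and SNHG7 (-0.66), and GAS5, the best known of the snoRNA hosts, missed the threshold (-0.42, adjusted p = 0.00749). Of 2013 processed pseudogenes, whose reads can come from the parent gene, 102 were total-high (5.07%, near the share of all genes) and 26 cytoplasm-high (1.29%).

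Of 40 tested genes of glioma signalling, 7 were total-high and 2 cytoplasm-high (median 0.11). The total-high members included the tumour suppressor gene RB1 (0.60), the RAS pathway members BRAF (0.53) and SOS1 (0.42), the lipid kinase gene PIK3CA (0.57) and the BMP receptor gene BMPR2 (0.54). RB1 was at 173, 183, 177 and 210.4 CPM in total RNA and 114, 113, 134 and 128 CPM in cytoplasmic RNA, without overlap. The p53 inhibitor gene MDM4 (-0.53) and the receptor gene ERBB2 (-0.41, but 0.04 with the GC offset) were higher in cytoplasmic RNA. The most abundant members of the list, the receptor gene AXL (0.05) and the cyclin gene CCND1 (0.22), were not called. Of the glial markers only ID3, an inhibitor of basic helix-loop-helix factors, was called, at 40.8, 38.1, 34.4 and 33.8 CPM in total RNA and 54.7, 61.6, 58.1 and 66.4 CPM in cytoplasmic RNA (-0.71). The median of the glial list was -0.11, and 0.07 with the GC offset.

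Of 50 tested matrix and integrin genes, 6 were total-high and 4 cytoplasm-high, beside 5.93% and 6.98% of all genes tested. The 6 were integrin chains: ITGB8, ITGA6 (0.63), ITGAV (0.56), ITGB1 (0.53), ITGA4 (0.52) and ITGA1 (0.49). The list holds 11 tested integrin chains, and of the 5 not called 4 had a ratio below 0. The 4 genes higher in cytoplasmic RNA encode secreted proteins, the collagens COL18A1 (-0.92) and COL1A1 (-0.85), the laminin chain LAMB2 (-0.75) and the protease inhibitor TIMP1 (-0.46). COL18A1 was at 12.3, 12.9, 15.1 and 9.35 CPM in total RNA and 27.2, 27.1, 19.3 and 19.9 CPM in cytoplasmic RNA. Its exons overlapped another gene over 18.5% of their bases. The abundant matrix gene THBS1 was not called (0.33, adjusted p = 0.0048), and the list median was -0.14. With the GC offset it was 0.06 and edgeR called none of the 50, while 13 had an unadjusted p under 0.05 in total RNA and 7 in cytoplasmic RNA. Of 33 secreted signals, INHBA, a subunit of activin (0.58), and NAMPT (0.53) were total-high and 0 were cytoplasm-high, while 6 had an unadjusted p under 0.05 and 1 was called by DESeq2 in cytoplasmic RNA. VEGFA, the angiogenic growth factor, varied widely, at 423, 384, 551 and 211 CPM in total RNA and 589, 560.2, 375 and 417 CPM in cytoplasmic RNA, and the fractions overlapped (-0.31, adjusted p = 0.436). The median of the secreted signals was 0.03, and -0.06 without total library 8.

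Genes with very long coding sequences were called for 13 of 52, of which 10 were total-high and 3 cytoplasm-high (median 0.10). SPTBN1, a spectrin chain of the membrane skeleton, was at 424, 479, 466 and 444 CPM in total RNA and 362, 307, 336 and 342 CPM in cytoplasmic RNA. All total libraries lay above all cytoplasmic libraries, with a log2 ratio of 0.43 (SE 0.0685, adjusted p = 0.000396). FLNA, which encodes the actin crosslinker filamin A, was at 3504, 3897, 3847 and 2965 CPM in total RNA and 4999.5, 5037, 4168 and 4274 CPM in cytoplasmic RNA (-0.38, adjusted p = 0.00627). FLNA thus had a ratio of opposite sign that was not called, and PLEC, also in this list, was called in cytoplasmic RNA. Of 50 cytoskeletal genes, 3 were total-high and 1 cytoplasm-high, beside 5.93% and 6.98% of all genes tested. Their median was -0.07, and 0.07 with the GC offset. The membrane-actin linker RDX (0.62), the microtubule protein gene MAP1B (0.60) and the capping protein gene CAPZA2 (0.44) were the 3, and the nuclear lamina gene LMNA the exception (-0.40, but 0.09 with the GC offset).

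Cell cycle genes were called for 14 of 51, with 8 total-high and 6 cytoplasm-high. The 8 higher in total RNA were the kinetochore genes KNL1 (0.75), CENPE (0.68), NUF2 (0.54), NDC80 (0.37) and CENPF (0.34), the spindle gene ASPM (0.65), the kinesin gene KIF11 (0.55) and the topoisomerase gene TOP2A (0.51). Of the 6 that were higher in cytoplasmic RNA, CDT1 (-0.77), MCM5 (-0.55), POLE (-0.49) and MCM2 (-0.33, but 0.01 with the GC offset) act in DNA replication, and CDC20 (-0.46) and AURKB (-0.39) in mitosis. TOP2A was at 848, 843, 874 and 813 CPM in total RNA and 560.0, 589, 637 and 588 CPM in cytoplasmic RNA, and CDT1 at 20.9, 20.7, 20.04 and 19.5 CPM in total RNA and 37.1, 35.3, 33.98 and 32.4 CPM in cytoplasmic RNA. Neither overlapped between the fractions, while the proliferation marker MKI67 did (0.04). The median of the list was 0.17. With the GC offset it was 0.05 and edgeR called none of the 51, while 11 had an unadjusted p under 0.05 in total RNA and 4 in cytoplasmic RNA. Of 413 zinc finger genes, 9 were total-high and 28 cytoplasm-high (median -0.02), beside 5.93% and 6.98% of all genes tested. The cytoplasm-high share was thus near that of all genes. ZNF483 was the highest called (1.25) and ZNF337 the lowest (-1.27). ZNF337 shares 65.6% of its exon bases with another gene.

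Factors that act on RNA were called in both directions, in small numbers that stand beside 5.93% and 6.98% of all genes tested. Of 47 splicing genes, 1 was higher in total RNA, the SR protein kinase SRPK2 (0.39), and 3 in cytoplasmic RNA, the kinase CLK2 (-0.74), RBM5 (-0.72) and SRRM2. Their median was 0.04, and -0.16 with the GC offset. Of 33 genes of mRNA decay, the exonuclease XRN1 (0.61), the deadenylase subunit CNOT6L (0.48) and the surveillance factor UPF2 (0.35) were higher in total RNA, and PAN2 (-0.64), EDC4 (-0.57), RNPS1 (-0.49) and SMG9 (-0.45) in cytoplasmic RNA (median 0.13). Of 17 genes of the microRNA pathway, DDX6 (0.32) was higher in total RNA, and TARBP2 (-0.64), a partner of Dicer, and MOV10 (-0.54) in cytoplasmic RNA (median 0.12). Of 32 heat shock genes, HSPA13 (0.57) and DNAJB4 (0.55) were higher in total RNA (median 0.14). HSF1, the heat shock transcription factor, was higher in cytoplasmic RNA (-0.53, but 0.04 with the GC offset). The most abundant chaperone, HSP90AA1, varied within each fraction, at 3709.5, 3756, 2849 and 4853 CPM in total RNA and 2054, 2301, 3194 and 2951 CPM in cytoplasmic RNA (0.53, adjusted p = 0.0341).

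Few or no calls fell on the remaining lists. Of 30 genes of cholesterol synthesis, SC5D (0.63) was higher in total RNA and EBP (-0.47) in cytoplasmic RNA (median -0.02). Of 37 immediate early genes, ID3, which is also in the glial list, was the call (median -0.05). None of 11 replication-dependent histone genes was called (median -0.09, and 0.28 with the GC offset), and none of 3 metallothionein genes was called (median -0.38). In each of the histone and metallothionein lists 2 genes had an unadjusted p under 0.05 in cytoplasmic RNA, and DESeq2 called 0. Of the cholesterol genes, 10 had an unadjusted p under 0.05 in total RNA and 10 in cytoplasmic RNA. Of the immediate early genes these numbers were 4 and 6. Without total library 8, which stood apart from its group, the calls were 11 and 2 for vesicle traffic, 9 and 1 for protein folding in the endoplasmic reticulum, 6 and 0 for ubiquitin transfer, 0 and 16 for cytosolic ribosomal proteins and 1 and 8 for oxidative phosphorylation, in total and cytoplasmic RNA.

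**Figure D3:**
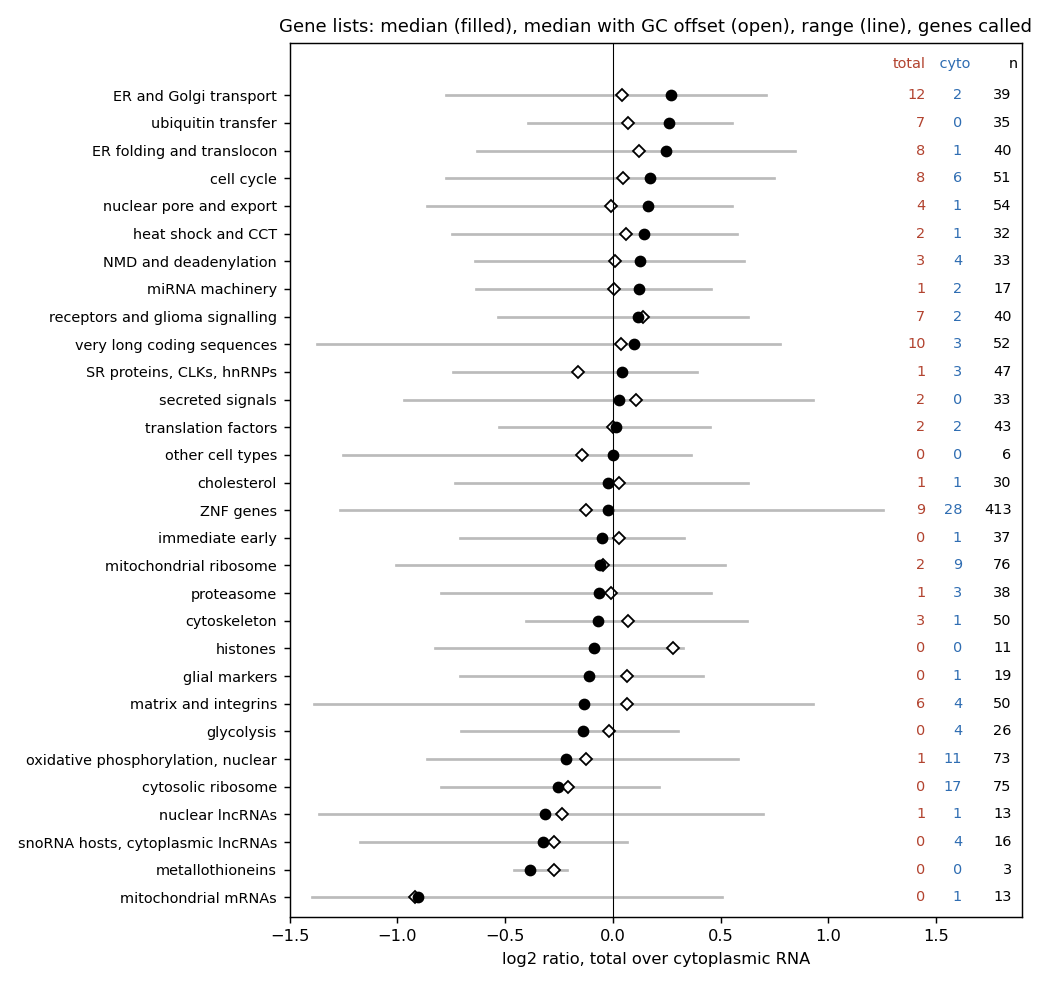
Log2 ratio of total over cytoplasmic RNA (x axis) of each gene list (down the page), with the median of its tested members as a filled point, the median with the GC offset as an open diamond and the range as a grey line; the columns at the right count the members higher in total RNA, those higher in cytoplasmic RNA and those tested. Transport between the endoplasmic reticulum and the Golgi, ubiquitin transfer and folding have filled points at 0.25 to 0.27, and cytosolic ribosomal proteins, nuclear genes of oxidative phosphorylation and mitochondrial transcripts at -0.26, -0.22 and -0.90.

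Of the transcript features measured, the one that followed the ratio most closely was its share of G and C. Over 12168 protein-coding genes with an annotated transcript, Spearman's correlation of the log2 ratio with GC content was -0.808, a description across genes that share the same 8 libraries. In the quintile of genes lowest in GC (median 38.2%), 637 of 2433 were total-high (26.2%) and 4 cytoplasm-high (0.164%), at a median log2 ratio of 0.37. The middle quintile had 20 higher in total RNA and 42 higher in cytoplasmic RNA, at a median of 0.04. In the quintile highest in GC (median 61.6%), 0 of 2434 were total-high and 675 cytoplasm-high (27.7%), at a median of -0.51. The 827 total-high genes had a median GC content of 38.3%, the 973 cytoplasm-high genes 60.7%, and the 10368 genes not called 47.6%. The list medians above follow the same order in part. Median GC content was 42.0% for vesicle traffic, 43.3% for protein folding in the endoplasmic reticulum and 53.6% for glycolysis. Cytosolic ribosomal proteins departed from the order at 47.8%. Splicing genes (41.8%, median ratio 0.04), zinc finger genes (43.15%, -0.02) and mitochondrial transcripts (44.3%, -0.90) were also low in GC, without a ratio like that of vesicle traffic.

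Length went with the ratio more weakly. Spearman's correlation was 0.426 for the 3′ untranslated length, 0.418 for the genomic span of the gene, 0.132 for the 5′ untranslated length, 0.079 for the coding length and 0.067 for the number of exons. Total-high genes had a median 3′ untranslated length of 3178 bases, against 548 bases in cytoplasm-high genes and 1379.5 bases in genes not called. From the shortest to the longest quintile of 3′ untranslated length, the share of genes higher in total RNA was 1.56% at the short end and 16.2% at the long end, and that of genes higher in cytoplasmic RNA was 17% at the short end and 1.97% at the long end. With genes split into 3 classes of GC and 3 of coding length, the class lowest in GC had 374 of 1376 genes higher in total RNA among the longest and 180 of 1318 among the shortest. In the class highest in GC, 329 of 1313 genes were higher in cytoplasmic RNA among the longest and 245 of 1349 among the shortest. Their median ratios were alike, at -0.41 and -0.41. In the middle class, 25 of 1367 genes were higher in total RNA among the longest and 8 of 1389 among the shortest. There, 22 and 33 were higher in cytoplasmic RNA. Longer coding sequences thus held more of the prevailing calls in the lowest and highest class, but not more calls throughout. With classes of 3′ untranslated length instead, the class lowest in GC had 545 of 2042 genes higher in total RNA among the longest and 62 of 698 among the shortest. In the class highest in GC, 76 of 583 genes were higher in cytoplasmic RNA among the longest and 565 of 2127 among the shortest.

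**Figure D4:**
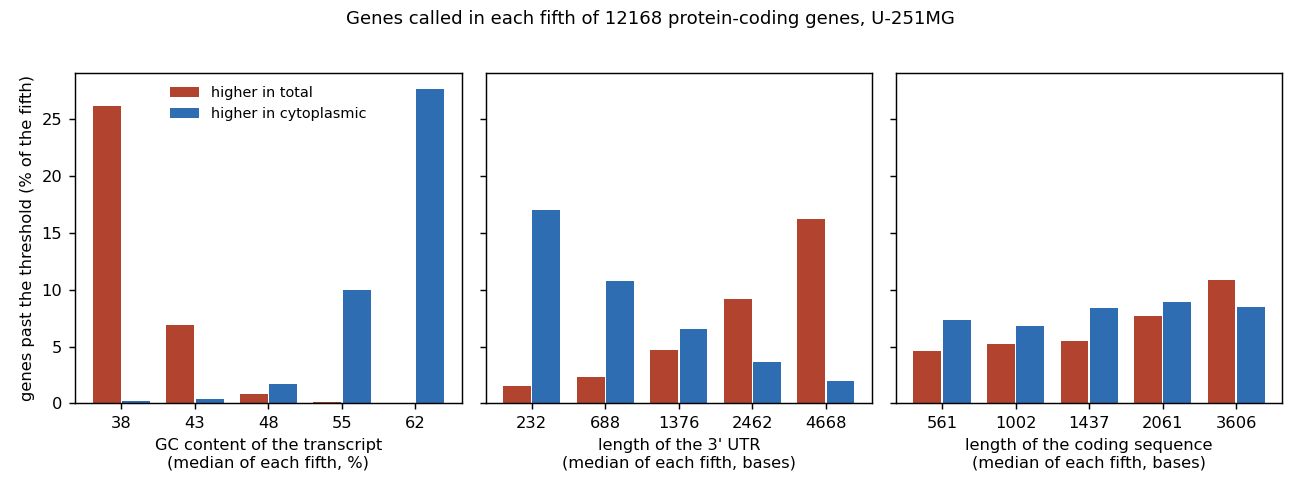
Percent of protein-coding genes called in each quintile of GC content, 3′ untranslated length and coding length (x axes, marked with the median of the quintile in percent or bases; y axis from 0), higher in total RNA in red and higher in cytoplasmic RNA in blue. For GC content the red share is 26.2% in the lowest quintile and 0% in the highest, and the blue share 0.164% and 27.7%, while coding length shows little of this.

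The same measure was taken in each library. The level of GC-rich genes (over 60%) less the level of GC-poor genes (under 40%), as means over genes, was -1.58, -1.67, -1.66 and -2.16 log2 CPM in total libraries 5, 6, 7 and 8, against -0.78, -0.60, -0.99 and -0.86 log2 CPM in cytoplasmic libraries 17, 18, 19 and 20. All total libraries were below all cytoplasmic libraries (exact permutation p = 0.0286, 0.0327 after adjustment), and total library 8, which deviated most from its group, was also the lowest in this measure. Once the fitted GC trend was removed, 63 genes were total-high and 104 cytoplasm-high, of which 44 and 85 had also been called without it. Genes without an annotated GC content received no offset, and the shared calls include such genes in both directions. MT-RNR1 was among them, at -0.84 with and without the offset. Of the 136 named genes called, 116 no longer passed the threshold. IQGAP1 (1.75), TAOK1 (0.83), OIP5-AS1 (0.79), ZDHHC20 (0.54) and DNAJC3 (0.55) were among those that stayed higher in total RNA. MT-ND4L (-1.57), MALAT1 (-1.57), ABCA7 (-0.68), PLXNB3 (-0.75), ZNF337 (-1.29) and SNHG12 (-0.67) were among those that stayed higher in cytoplasmic RNA. Of the lists, 4 cytosolic ribosomal proteins were then still higher in cytoplasmic RNA, and edgeR called none of the 39 genes of vesicle traffic, while 10 had an unadjusted p under 0.05 in total RNA and 4 in cytoplasmic RNA.

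The fractions also differed in how they were sequenced. By the study's description of its runs, all 4 total libraries and cytoplasmic libraries 19 and 20 were run on flow cell A, and cytoplasmic libraries 17 and 18 on flow cell B. The index sequences of total and cytoplasmic libraries differed throughout, so index and fraction cannot be told apart. Between the cytoplasmic libraries of flow cells A and B, which also carried different indices, 26 genes were higher in A (0.161%) and 156 in B (0.967%), and 4026 had an unadjusted p under 0.05. The genes higher in total RNA had a median log2 difference of 0.09 between cytoplasmic libraries of flow cell A and B, and those higher in cytoplasmic RNA of -0.11, so cytoplasmic libraries of flow cell A lay slightly nearer to total RNA. With flow cell A alone, 4 total and 2 cytoplasmic libraries, 17 genes were total-high and 35 cytoplasm-high. The 957 and 1126 genes had medians of 0.45 and -0.62. All kept the sign of their ratio, which the lack of overlap between the fractions had largely fixed in advance. IQGAP1 had a ratio of 1.75, TAOK1 of 1.16, MALAT1 of -1.36 and MT-ND4L of -1.42 in these libraries. In the lists, the median was then 0.26 for protein folding in the endoplasmic reticulum, 0.19 for vesicle traffic, -0.18 for cytosolic ribosomal proteins and -0.91 for mitochondrial transcripts. With flow cell as a term in the fit of all 8 libraries, 118 genes were total-high and 207 cytoplasm-high.

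Whether the ratio of U-251MG differed from that of the other lines was tested by an interaction term over 23 libraries, since 1 cytoplasmic library of U-2 OS was left out. Of 19948 genes tested, 2 had a higher ratio in U-251MG than the mean of A-431 and U-2 OS (0.01%) and 1 a lower ratio (0.00501%), at an adjusted p under 0.05. TAOK1 had a ratio of 1.14 in U-251MG, 0.93 in A-431 and 0.28 in U-2 OS, a difference of 0.54 (adjusted p = 0.0243). ITGB8 had a ratio of 0.95 in U-251MG, 0.69 in A-431 and 0.09 in U-2 OS, a difference of 0.56 (adjusted p = 0.0388). For both, the ratio in U-251MG was above that in either other line, with A-431 the nearer. SGPP2, a phosphatase of sphingosine 1-phosphate that was singled out after its values were seen, had a ratio of -2.11 in U-251MG, 0.22 in A-431 and -0.17 in U-2 OS (difference -2.14, adjusted p = 0.0243). It rested on few reads, 1, 6, 9 and 4 in total libraries and 34, 26, 17 and 20 in cytoplasmic libraries, and it was not called in U-251MG by itself (adjusted p = 0.00118).

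IQGAP1, the leading total-high gene under the naming rule, had a larger ratio in A-431 (3.03) and a smaller one in U-2 OS (0.38), and its difference from the mean of the other lines did not pass the test (0.23, adjusted p = 0.356). Of the genes called in U-251MG, 53 were total-high and 55 cytoplasm-high in all 3 lines, and 0 of the 957 total-high genes were called in the opposite direction in A-431 or U-2 OS. Of the 1126 cytoplasm-high genes, 1 was, PLEC, with a ratio of 0.54 in A-431. Calls in A-431 and U-2 OS came from the single model over 23 libraries, in which U-2 OS had fewer cytoplasmic libraries. Those of U-251MG came from its own 8 libraries. The shares of all genes called in the other lines are not given. The counts of 53 and 55 therefore do not show how particular the calls were to U-251MG. The interaction calls rested on single libraries: without total library 6, total library 8, cytoplasmic library 17 or cytoplasmic library 20, 0 genes passed edgeR's test in either direction, while 820 to 1446 higher and 750 to 1241 lower genes had an unadjusted p under 0.05. Against U-2 OS alone, 181 genes had a higher and 152 a lower ratio in U-251MG, and against A-431 alone, 8 had a higher and 24 a lower ratio.

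**Figure D5:**
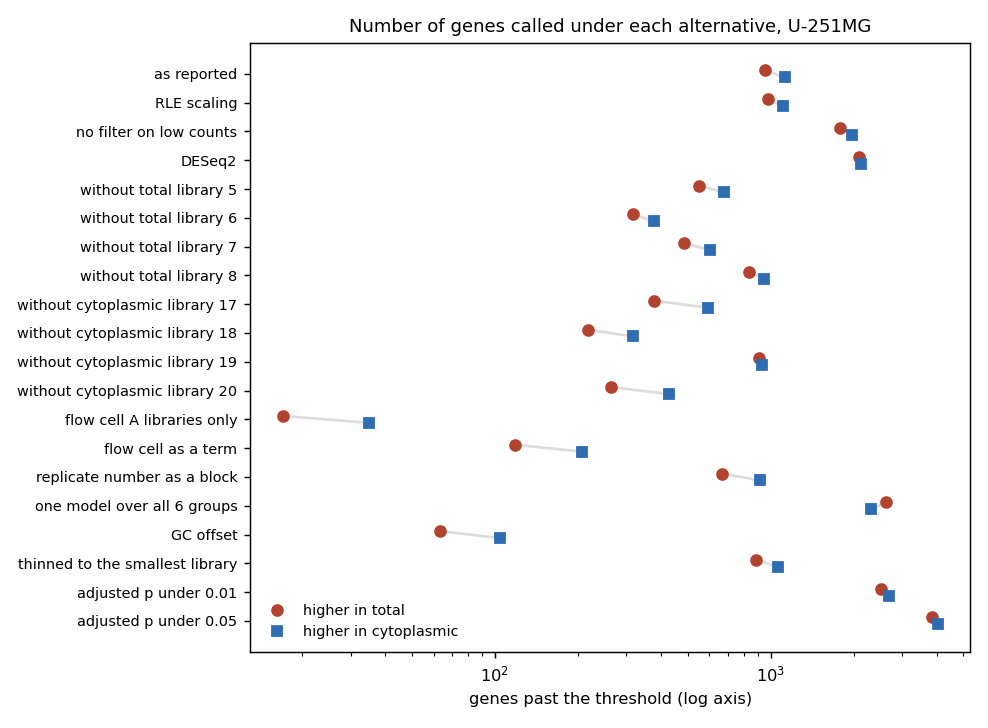
Number of genes past the threshold (x axis, log scale) that were higher in total RNA (red circles) and higher in cytoplasmic RNA (blue squares) under each alternative (rows). The counts are 957 and 1126 as reported, between 217 and 907 and between 316 and 950 without single libraries, 63 and 104 with the GC offset, and 17 and 35 with the libraries of flow cell A alone.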

How the data were processed

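Poly(A)-enriched RNA of U-251MG was sequenced in 4 total and 4 cytoplasmic libraries. The authors aligned reads to hg19 (GRCh37) with TopHat 1.1.4, processed alignments with SAMtools 0.1.8 and counted uniquely aligned reads per Ensembl gene with HTSeq 0.4.6, without regard to strand, and the deposited read counts per gene were used as they stand. The labels name Trizol extraction and a paired-end protocol, whereas the methods name RNeasy columns and single reads. RPKM values of the same reads were not used.

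Rows that name no gene were kept out of library sizes, and reads without a feature came to 14.4 ± 0.533% of uniquely aligned reads in total and 16.0 ± 0.469% in cytoplasmic libraries (SD, n = 4 each). Counts were scaled by TMM, filtered with filterByExpr and fitted with edgeR 4.0.16 (robust quasi-likelihood F-test, R 4.3.3, limma 3.58.1). Genes of an adjusted p under 0.001 were called. The interaction was fitted over 23 libraries of 3 lines and read at an adjusted p under 0.05. Library 5 of total RNA was the shallowest, at 19918911 reads in genes, so genes of few reads were less precise. The script was tested on simulated data.

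Members and gene lists were chosen with earlier results of these data known. Named genes were, per direction, the 12 called genes of largest ratio at a mean of at least 3 log2 CPM, with no overlap between fractions and a symbol, among protein-coding genes and long non-coding RNAs, the 6 most abundant called genes of these kinds, the 2 most abundant members of each list, the extreme called member of each list in each direction, the interaction calls, and MALAT1, NEAT1 and MT-CO1. Other called members of a list, and SGPP2, IQGAP2, IQGAP3, NES, FABP7, GFAP, MT-ND3, MT-RNR1 and MT-RNR2, were named after their values were seen, and some genes that this rule admits are not reported here. Gene features came from GENCODE v44lift37, matched for 42986 of 51715 genes. Flow cells came from the study's run list, matched on read totals. Alternatives comprised RLE scaling, no filter, DESeq2 1.42.0, each library left out, flow cell A alone, flow cell as a term, a replicate block, all 6 groups in a single model, an offset for GC content (loess, span 0.5), thinning to equal depth and other thresholds. Genes without an annotated GC content were left without an offset.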

Additional observations from a re-analysis of the deposited data

Results flagged for a closer look

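Of 340 groups of 4 libraries examined, 13 held a library whose gap to the nearest other, as a share of the range of its group, was above Dixon's 95% limit, and chance gives about 1 in 20. Total library 8 was the outlying library in 6 of the 13. It was low for KIFC2 (5.31 CPM, against 8.78 to 9.43 CPM in the other total libraries, gap share 0.875), LAMB2 (115 against 158 to 166 CPM, 0.871) and PFKL (42.0 against 55.8 to 57.3 CPM, 0.915). It was high for MRPL19 (114 against 88.2 to 91.6 CPM, 0.853) and PSMD12 (221 against 187 to 192 CPM, 0.832). The level of GC-rich minus GC-poor genes was also lowest in this library (-2.16 against -1.67 to -1.58 log2 CPM, 0.857).

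Total library 7 was high for RPS15 (153 against 119 to 122 CPM, gap share 0.878) and ITGA1 (29.99 against 25.6 to 25.8 CPM, 0.944), and total library 6 for EBP (28.4 against 24.1 to 24.8 CPM, 0.84). Cytoplasmic library 17 was high for SRRM2 (742 against 647 to 662 CPM, 0.835) and low for CDC20 (132 against 149 to 152 CPM, 0.862), for ITGA4 (28.1 against 31.7 to 32.4 CPM, 0.84) and for the share of replication-dependent histone transcripts (0.0023% against 0.0029 to 0.00301%, 0.835).

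Of 19948 genes tested, 3 had a ratio in U-251MG that differed from the mean ratio of A-431 and U-2 OS by the interaction test of edgeR. The naming rule took in interaction calls, and SGPP2 was added after its values were seen. That all 3 are among the 162 named genes was thus set by the naming. The difference was 0.56 for ITGB8, 0.54 for TAOK1 and -2.14 for SGPP2, the last on few reads.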

How the results depend on the processing

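All 957 and 1126 called genes kept the sign of their ratio under RLE scaling, DESeq2, each library left out and flow cell A alone. No called gene overlapped between the fractions, so these signs were largely fixed in advance. With the GC offset, 936 and 1019 kept the sign. Genes higher in total and in cytoplasmic RNA numbered 979 and 1110 with RLE scaling, 884 and 1065 after thinning, 1785 and 1980 without the filter, 2090 and 2129 with DESeq2, 2625 and 2323 with all 6 groups in a single model, 63 and 104 with the GC offset, 118 and 207 with flow cell as a term and 17 and 35 with flow cell A alone, where fewer libraries entered. At an adjusted p under 0.01 they were 2506 and 2693, and under 0.05 they were 3837 and 4040. Without single libraries they ranged over 217 to 907 and 316 to 950. The smallest counts came without cytoplasmic library 18, and total libraries 5, 6 and 7 and cytoplasmic libraries 17 and 20 also moved a count by over 1.5 times. The cause of these shifts was not tested.

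The labels share no replicate number between the fractions. With the numbers of the run list as a replicate block, 665 and 917 genes were called. Deviations of same-numbered libraries correlated at 0.136, 0.179, -0.688 and 0.509. Differently numbered libraries reached 0.751 (total library 8 and cytoplasmic library 19). Such deviations may also carry shifts of single libraries, so they do not decide whether same-numbered libraries shared a culture.

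Genes with a higher ratio in U-251MG than in the other lines numbered 8 against A-431 alone, 181 against U-2 OS alone, 1 with all deposited libraries and 0 to 9 without single libraries, and those with a lower ratio 24, 152, 1 and 0 to 9. Total libraries 5, 6, 7 and 8 and cytoplasmic libraries 17, 18, 19 and 20 each moved the higher or the lower count by over 1.5 times. Library shares moved by less than 1 SD under each library left out and flow cell A alone.

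With the GC offset the median log2 ratio changed sign for glial markers (0.066), matrix and integrin genes (0.0641), splicing genes (-0.16), the nuclear pore (-0.0078), histones (0.28) and the cytoskeleton (0.0696), and the ratio for ERBB2 (0.0442), HSF1 (0.0401), LMNA (0.0864) and MCM2 (0.0091). The median of the markers of other cell types was -0.18 with flow cell A alone and -0.18 with flow cell as a term, and that of secreted signals ranged over -0.0626 (without total library 8) to 0.079 without single libraries. Of 136 named genes called, 51 stayed called without each library in turn, and 4 (IQGAP1, TAOK1, ZDHHC20 and MT-ND4L) under every alternative run. Depth limited SGPP2, with 1 to 9 reads in total libraries.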
